A study of Homo sapiens with 6 samples.

Results

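The transcriptional coactivators YAP and TAZ, their TEAD partners and a set of genes that they switch on were followed on 6 single-channel arrays of MCF10A cells. MCF10A is an established human cell line of non-tumorigenic mammary epithelium, and the version used here is named with ErbB2, a receptor tyrosine kinase. The genes are YAP1, WWTR1 (which encodes TAZ), TEAD1, TEAD4, CCN1, CCN2, ANKRD1, AMOTL2, NT5E and AXL. They were picked by name, and all 10 were found among the 18417 genes measured, each with 1 probe set that carries 1 gene symbol. Of the arrays, 3 were labelled RB-deficient (sample titles with miRB) and were set against 3 labelled RB-proficient (titles with miNS). RB is the retinoblastoma protein, and the labels do not spell out how the deficient state was made. Both groups are named with ErbB2 and were grown for 7 days in 3-D culture in a reconstituted membrane, and cells and matrix were lysed together. The labels do not say whether replicates came from separate cultures or clones, so each p-value reflects the spread among these 6 samples alone, part of which may be technical.

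YAP and TAZ do not bind DNA themselves. When the Hippo kinase cascade (the MST kinases, then the LATS kinases) is quiet, they enter the nucleus and join TEAD proteins, which bind the DNA. When the cascade is active, LATS phosphorylates YAP and TAZ, which are then kept in the cytoplasm or degraded. Cell contact, polarity, matrix stiffness and tension in the actin cytoskeleton all feed into this switch, and in mammary epithelium it is known for its part in growth control and in the response to a stiff matrix. The switch acts on proteins, so the transcript levels measured here do not read YAP or TAZ activity directly.

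All values below are log2 intensities, with the arrays brought to one median, and 0 on this scale is a floor of 1 unit. Differences are log2, RB-deficient minus RB-proficient. Adjusted p-values are from limma with Benjamini-Hochberg adjustment over all 18417 genes, and n = 3 per group. RB1 itself gave 3.45, 5.09 and 6.04 in RB-deficient-labelled arrays 1 to 3, against 7.01, 5.77 and 7.65 in the RB-proficient arrays 1 to 3. RB-deficient array 3 exceeded RB-proficient array 2, so the groups overlapped in RB1 (adjusted p 0.302), and directions below go by the labels alone. The reference gene ACTB lay lower in the RB-deficient-labelled arrays (difference -1.92, adjusted p 0.213), as did GAPDH (-1.23, adjusted p 0.302) and ERBB2 (-1.31, adjusted p 0.288). The deposited ERBB2 intensities were 12.6, 12.7 and 19.0 in the RB-deficient-labelled arrays, against 29.3, 45.2 and 38.3 in RB-proficient. The median probe set of an array had a deposited intensity of 21.37 to 28.05. The median difference over all genes was -0.21. A gene's SD had a median of 0.84 in the RB-deficient-labelled arrays and 0.40 in the RB-proficient arrays. Array RB-deficient 3 correlated with the RB-proficient arrays, across genes, at r = 0.832 to 0.882, while RB-deficient 1 and 2 did so at 0.684 to 0.755. Genes at the floor made up 4.71% of the genes in RB-deficient 1, and from 0.326% to 1.62% in the other arrays.

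The epithelial marker EPCAM (10.4, 10.3 and 10.1 in the RB-deficient-labelled arrays, against 10.1, 9.99 and 10.1 in RB-proficient) was bright in all 6 arrays and the only one of 8 such markers with a positive difference. The other 7 differed by -2.40 (KRT5) to -0.71 (KRT14), the median of the 8 was -1.33, and ITGB4 (-2.29), CDH1 (-1.54), KRT8 (-1.33) and KRT18 (-1.27) were lower without overlap. None passed an adjusted p of 0.05. Of all genes, 58.6% had a negative difference and 15.3% were lower without overlap. The summed linear level of the 8 measured mammary epithelial markers was 2079 to 2840 in the RB-deficient-labelled arrays and 3331 to 5934 in the RB-proficient arrays. The sum of 7 fibroblast markers was 141 to 292 in the RB-deficient-labelled arrays and 144 to 192 in RB-proficient. That of 4 leukocyte markers was 70.8 to 127 in RB-deficient-labelled and 75.7 to 85.7 in RB-proficient arrays, and that of 5 endothelial markers 307 to 360 in RB-deficient-labelled and 477 to 598 in RB-proficient arrays. COL3A1, a fibroblast collagen, was at the floor in 1 array. CDH5, an endothelial cadherin, gave 7.82 to 8.29 in the RB-deficient-labelled arrays and 8.70 to 9.10 in RB-proficient, and made up most of the endothelial sum. The sample titles name this cell line alone and no other cell type. The part of these markers in the results below was not tested. In bulk RNA fewer cells with a marker and less of its RNA per cell cannot be told apart.

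Of the 10 genes, 0 passed an adjusted p of 0.05, where 1 of 18417 genes did (0.00543%). At an unadjusted p under 0.05, NT5E had lower values and ANKRD1 higher ones in the RB-deficient-labelled arrays, where 10.8% and 2.85% of all genes did so. For the coactivators YAP1 and WWTR1 the means of the groups differed by 0.19 or less. Among the target genes, CCN1, AXL and NT5E had means more than 1 log2 unit lower in the RB-deficient-labelled arrays, while ANKRD1 had a mean more than 1 unit higher. The sizes of CCN1 and AXL rest largely on RB-deficient arrays 1 and 2, and that of NT5E on the floor.

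**Figure D1:**
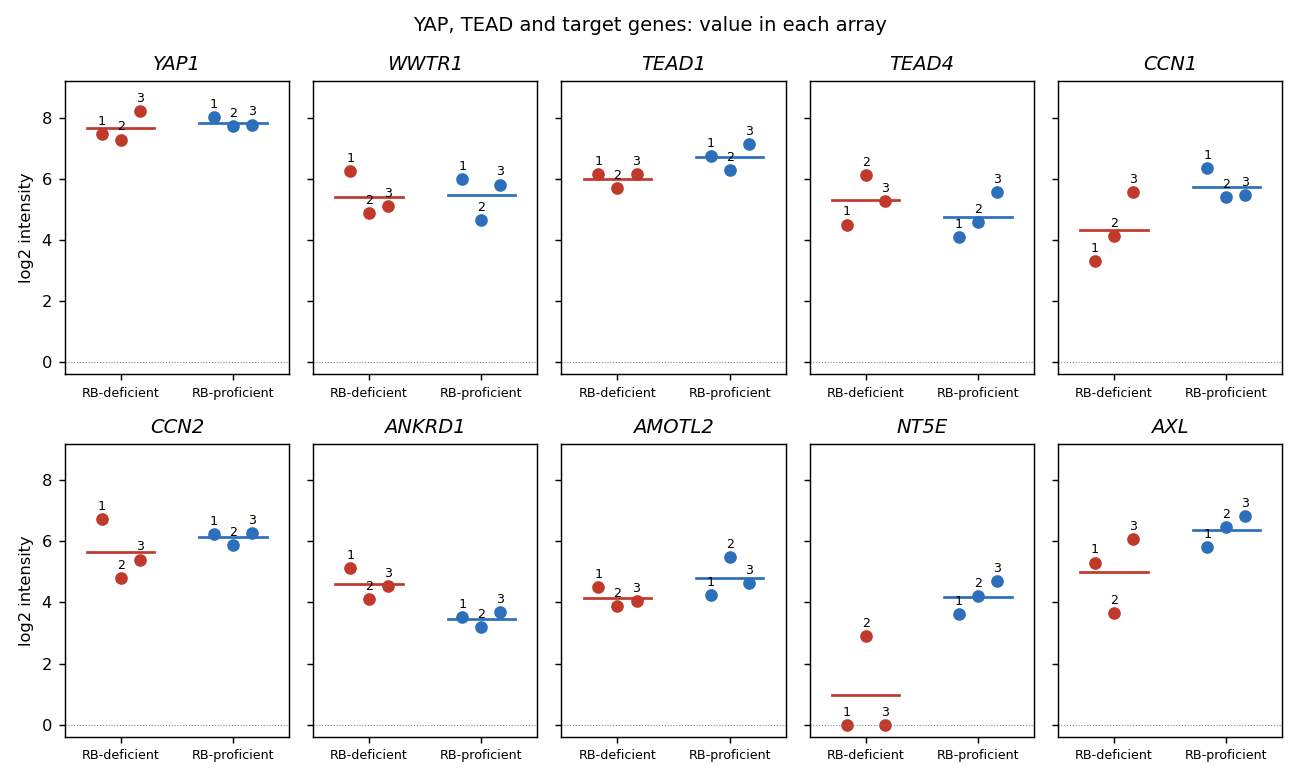
Log2 intensity (vertical axis) of each of the 10 genes in the 3 RB-deficient-labelled arrays (red) and the 3 RB-proficient arrays (blue). Small digits give the array number, horizontal bars the group mean, and the dotted line the floor at 0. The groups do not overlap for TEAD1, ANKRD1 and NT5E.

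YAP1 encodes the coactivator YAP. Its values were 7.46, 7.28 and 8.21 in the RB-deficient-labelled arrays, against 8.02, 7.71 and 7.78 in the RB-proficient arrays. Array RB-deficient 3 held the highest YAP1 value of all 6 and RB-deficient 2 the lowest, so the groups overlapped. The difference was -0.19 (SE 0.49, 95% interval -1.29 to 0.92, adjusted p 0.882). It became 0.05 after quantile normalization and 0.37 with RB-deficient 3 as the only array of its group. A change of 2-fold (1 unit) downward lies inside the interval, so the arrays do not show that YAP1 stayed level.

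WWTR1 encodes TAZ, the paralog of YAP. Its values were 6.26, 4.88 and 5.12 in the RB-deficient-labelled arrays, against 5.99, 4.63 and 5.81 in RB-proficient. Both groups spread over more than 1 unit, with an SD of 0.74 in each. The WWTR1 difference was -0.06 (SE 0.60, interval -1.40 to 1.28, adjusted p 0.972), and it ran from -0.48 to 0.21 as single arrays were left out. The difference between the YAP1 and WWTR1 changes was -0.13 (exact permutation test over the arrays, two-sided, p = 1). This test cannot give a p under 0.1 here, and the pair was chosen after the values were seen.

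TEAD1 encodes one of the DNA-binding partners. It gave 6.15, 5.69 and 6.14 in the RB-deficient-labelled arrays, against 6.75, 6.30 and 7.14 in the RB-proficient arrays. Every RB-deficient-labelled value lay under every RB-proficient value, by a gap smaller than the SD of either group. The TEAD1 difference was -0.74 (SE 0.49, interval -1.83 to 0.36, adjusted p 0.529), and it stayed between -0.95 and -0.53 in all 18 alternative settings. Groups did not overlap in the downward direction for 15.3% of all genes.

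TEAD4, another member of the TEAD family, gave 4.50, 6.13 and 5.27 in the RB-deficient-labelled arrays, against 4.09, 4.57 and 5.55 in RB-proficient. Its highest value came from RB-deficient 2 and the groups overlapped. The TEAD4 difference was 0.56 (SE 0.61, adjusted p 0.702), 0.15 without RB-deficient 2 and 0.97 without RB-proficient 3. TEAD1 thus had a negative and TEAD4 a positive difference, and the gap between these was -1.30. The exact permutation test on the within-array TEAD1 minus TEAD4 value gave p = 0.2. The smallest p that 3 against 3 arrays allow is 0.1, and adjusted over the 3 paralog pairs compared (YAP1 with WWTR1, TEAD1 with TEAD4, CCN1 with CCN2) it was 0.6. These pairs were chosen after the values were seen.

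**Figure D2:**
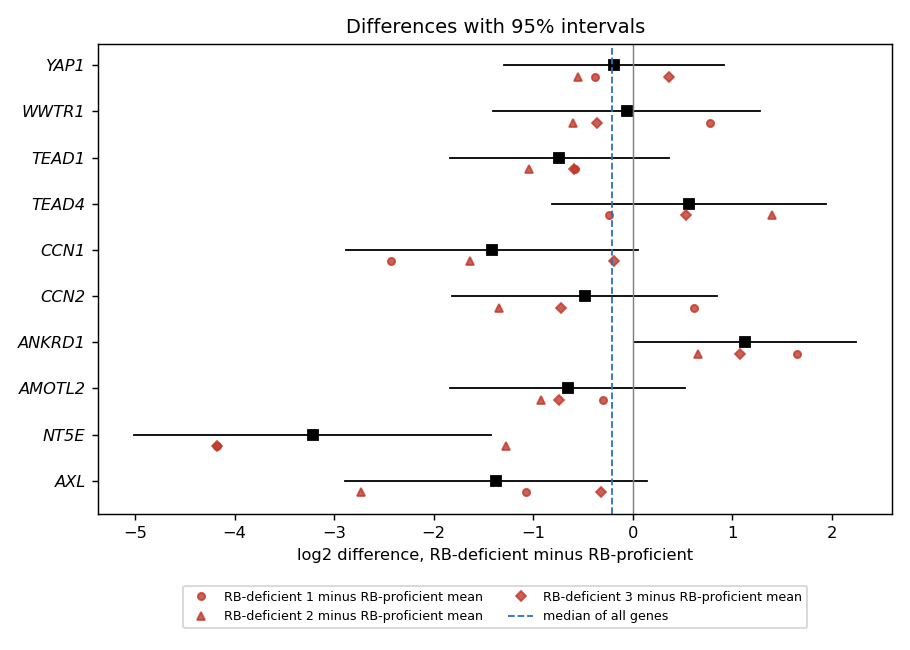
Log2 difference, RB-deficient minus RB-proficient, of each gene (black square) with its 95% interval from limma (line). Red marks below each line are the 3 RB-deficient-labelled arrays, each minus the RB-proficient mean, and the dashed blue line is the median of all genes at -0.21. Only the intervals of ANKRD1 and NT5E lie to one side of 0.

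TEAD proteins bind the letters GGAATG, which read CATTCC on the other strand, in promoters and in distant enhancers. The 250 bases before each annotated start (RefSeq, GRCh38.p14) were searched on both strands for 7 of the 10 genes, which have 10 starts between them. CCN1, TEAD1 and TEAD4 had no entry among the sequences used. Such a match was found before 1 start or more of YAP1, CCN2, ANKRD1, AMOTL2 and AXL, 5 of the 10 windows, and in 11.9% of the 35116 windows of all genes. The genes were picked by name as YAP, TEAD and their targets, so these shares do not test for enrichment. The CCN2 window holds 3 matches (0.0826% of all windows hold 3 or more), which start 169, 104 and 95 bases before the transcription start. The ANKRD1 window holds 2 (0.94% of all windows hold 2 or more), 220 and 128 bases before it, and the YAP1 window holds 1, 162 bases before it. NT5E has 0 matches in its window. The CArG box, the site of the actin-regulated factor SRF, was found in 0 of the 10 windows and in 1.16% of all windows. A match is a string of letters and not a measured site, and the search says nothing of sites outside these windows. The windows of CCN2 and ANKRD1 are shown because both hold several matches and the fitted differences had opposite signs. The interval of the CCN2 difference was -1.81 to 0.85, so its sign is not settled, and ANKRD1 was dimmer than the median gene. The YAP1 window is shown as the coactivator's own, and that of NT5E as the gene with the largest difference at the floor of 1. With a floor or an offset of 16 the AXL difference was larger than that of NT5E, at -1.25 and -0.97. Capitals mark the TEAD motif. The windows are chr6:131951373-131951622 on the minus strand for CCN2, chr10:90921088-90921337 on the minus strand for ANKRD1, chr11:102110197-102110446 on the plus strand for YAP1 and chr6:85449833-85450082 on the plus strand for NT5E.
CCN2: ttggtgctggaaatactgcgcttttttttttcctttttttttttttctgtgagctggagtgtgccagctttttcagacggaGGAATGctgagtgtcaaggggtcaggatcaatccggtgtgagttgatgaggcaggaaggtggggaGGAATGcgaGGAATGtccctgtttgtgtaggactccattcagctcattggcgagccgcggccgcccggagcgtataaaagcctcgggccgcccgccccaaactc
ANKRD1: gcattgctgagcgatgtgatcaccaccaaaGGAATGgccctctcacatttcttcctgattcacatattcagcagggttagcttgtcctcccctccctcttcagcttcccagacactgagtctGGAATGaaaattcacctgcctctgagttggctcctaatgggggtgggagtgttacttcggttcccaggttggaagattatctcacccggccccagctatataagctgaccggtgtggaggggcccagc
YAP1: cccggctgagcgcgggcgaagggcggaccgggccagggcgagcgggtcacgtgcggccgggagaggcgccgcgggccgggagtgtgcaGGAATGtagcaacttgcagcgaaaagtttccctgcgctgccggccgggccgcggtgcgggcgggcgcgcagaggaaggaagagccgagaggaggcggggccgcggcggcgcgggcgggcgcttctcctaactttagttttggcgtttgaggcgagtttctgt
NT5E: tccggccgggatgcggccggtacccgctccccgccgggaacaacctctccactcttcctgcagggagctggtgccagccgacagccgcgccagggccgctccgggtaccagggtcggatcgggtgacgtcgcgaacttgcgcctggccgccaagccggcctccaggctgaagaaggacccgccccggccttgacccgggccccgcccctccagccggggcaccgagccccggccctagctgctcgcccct

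**Figure D3:**
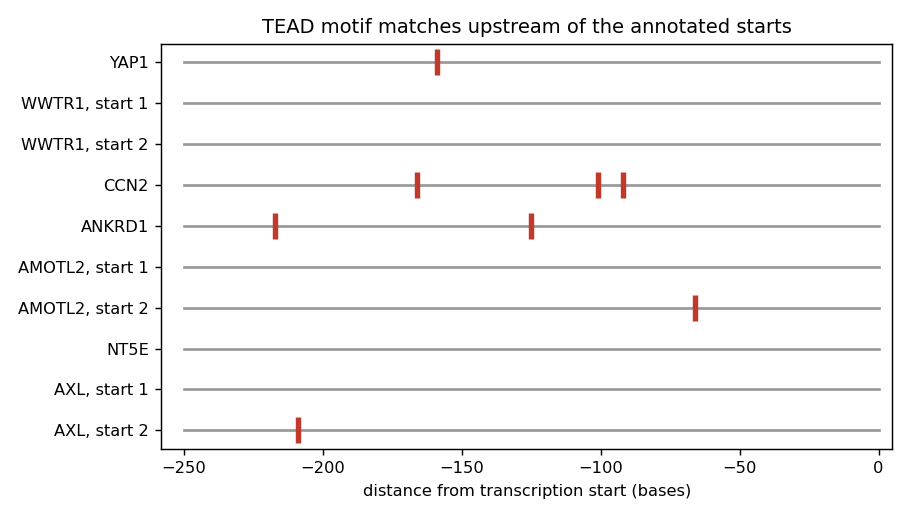
Matches to the TEAD motif (red ticks) in the 250 bases before each annotated start of 7 genes, by distance from the start in bases (horizontal axis). Grey lines are the windows searched. CCN2 holds 3 matches, ANKRD1 holds 2, and WWTR1 and NT5E hold none.

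CCN1 (CYR61) and CCN2 (CTGF) encode secreted matricellular proteins and are the genes most often used to read YAP and TAZ activity. CCN1 gave 3.31, 4.11 and 5.56 in the RB-deficient-labelled arrays, against 6.35, 5.40 and 5.47 in the RB-proficient arrays. RB-deficient 1 and 2 lay under all RB-proficient values, and RB-deficient 3 lay among them. The CCN1 difference was -1.41 (2.67-fold lower, SE 0.65, interval -2.88 to 0.05, adjusted p 0.375). It was -0.91 without RB-deficient 1 and -0.18 with RB-deficient 3 as the only array of its group. With single arrays left out, its lowest adjusted p was 0.124.

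CCN2 gave 6.75, 4.79 and 5.41 in the RB-deficient-labelled arrays, against 6.23, 5.90 and 6.26 in RB-proficient. Its RB-proficient values lay close together (SD 0.20), while RB-deficient 1 was the highest and RB-deficient 2 the lowest array of all 6 (SD 1.00). The CCN2 difference was -0.48 (SE 0.59, interval -1.81 to 0.85, adjusted p 0.735), and it was -1.03 without RB-deficient 1 and -0.05 without RB-deficient 2. In RB-deficient 1, then, CCN1 had its lowest value and CCN2 its highest. The gap between the CCN1 and CCN2 differences was -0.93 (exact permutation test, two-sided, p = 0.7) and turned to 0.12 without RB-deficient 1. As above, the test cannot give a p under 0.1, and the pair was chosen after the values were seen.

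ANKRD1 encodes a cardiac and stress-induced ankyrin repeat protein and is another common YAP target. It gave 5.12, 4.12 and 4.54 in the RB-deficient-labelled arrays, against 3.51, 3.19 and 3.70 in the RB-proficient arrays. All RB-deficient-labelled values lay above all RB-proficient ones, which was so for 7.12% of all genes. The ANKRD1 difference was 1.13 (2.19-fold higher, SE 0.50, interval 0.01 to 2.25, unadjusted p 0.0486, adjusted p 0.362). It was positive in each of the 17 alternative settings that kept the gene, from 0.58 to 1.36. Its unadjusted p was above 0.05 in 10 of them, from 0.0532 with array weights to 0.162 without RB-proficient 2. Adding 16 to each value gave the smallest difference (0.58) and flooring at 16 the next (0.59), since all 3 RB-proficient values lie under 16 on the linear scale.

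ANKRD1 and CCN2 are set side by side here because their values were seen to part, so no test is given. The difference of ANKRD1 exceeded that of CCN2 by 1.61. Within each array, ANKRD1 minus CCN2 had an SD of 0.09 over the RB-proficient arrays and of 0.51 over the RB-deficient-labelled arrays, and the values of the groups did not overlap. The gap was 0.92 with an offset of 16 and 1.42 to 1.90 with single arrays left out.

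AMOTL2 encodes an angiomotin-like scaffold that binds YAP and is itself a YAP target. It gave 4.50, 3.88 and 4.06 in the RB-deficient-labelled arrays, against 4.25, 5.50 and 4.65 in RB-proficient. The array RB-proficient 2 stood above the rest and the groups overlapped. The AMOTL2 difference was -0.65 (SE 0.53, adjusted p 0.601), or -0.30 without RB-proficient 2.

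NT5E encodes CD73, the cell-surface enzyme that makes adenosine from AMP. It gave 0, 2.90 and 0 in the RB-deficient-labelled arrays, with 0 as the floor, against 3.64, 4.20 and 4.70 in the RB-proficient arrays. The deposited intensities behind these were 0.0163, 7.46 and 0.837 in the RB-deficient-labelled arrays, and 12.5, 18.6 and 23.4 in RB-proficient. All RB-deficient-labelled values lay below all RB-proficient ones, and the NT5E signal was dim in every array. The fitted NT5E difference was -3.21 (SE 0.80, unadjusted p 0.0027, adjusted p 0.21). Its size depends on the floor: flooring at 16 gave -0.30 and adding 16 to each value gave -0.90. NT5E did not pass in any of the 16 alternative settings that kept it, with a lowest adjusted p of 0.131 (eBayes with trend and robust).

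AXL encodes a receptor tyrosine kinase of the TAM family, through which YAP has been linked to survival and invasion. It gave 5.31, 3.65 and 6.06 in the RB-deficient-labelled arrays, against 5.82, 6.47 and 6.85 in RB-proficient. RB-deficient 2 stood well below the rest, and RB-deficient 3 lay above RB-proficient 1. The AXL difference was -1.37 (2.59-fold lower, SE 0.68, interval -2.89 to 0.14, adjusted p 0.403), and it was -0.69 without RB-deficient 2.

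Over the 10 genes, 8 had a negative difference, where 58.6% of all genes did. Their median was -0.57, against -0.21 over all genes. With the dimmest 50% of genes left out these medians were -0.48 and -0.31, and with a floor of 16 they were -0.39 and 0. The median deviation of the genes from the RB-proficient means was -0.34, -0.98 and -0.34 in RB-deficient-labelled arrays 1, 2 and 3. In 7 of the 10 genes the SD was larger in the RB-deficient-labelled arrays, as for 81.0% of all genes. TEAD1, CCN1, AMOTL2, NT5E and AXL lay below the RB-proficient mean in each of the 3 RB-deficient-labelled arrays, and ANKRD1 above it in each. The other members had arrays on both sides. The shares of all genes below or above that mean in all 3 arrays were not counted, so no trait of these 10 genes follows. Without RB-deficient 2 the median of the 10 was -0.29, and without RB-deficient 1 it was -0.82.

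**Figure D4:**
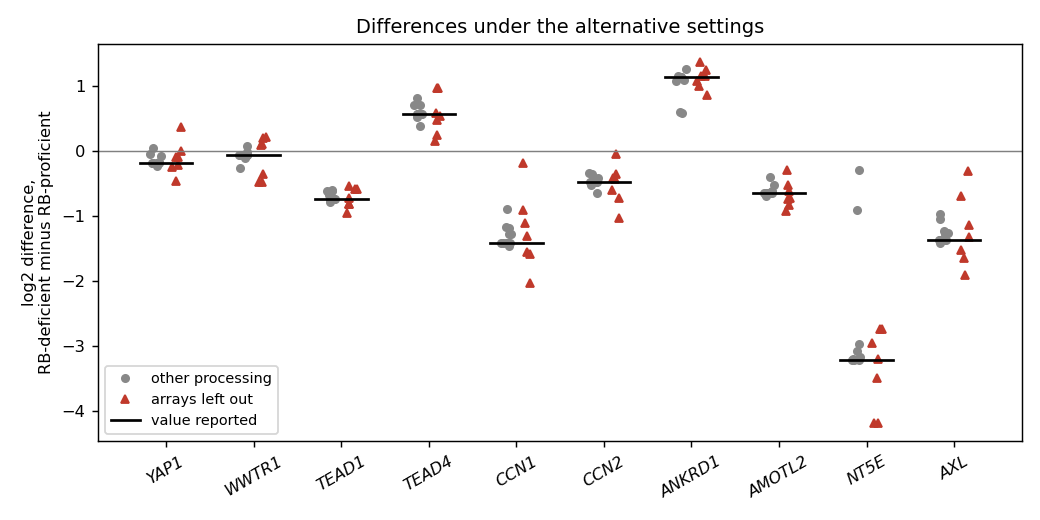
Log2 difference, RB-deficient minus RB-proficient, of each of the 10 genes as reported (black bar), under other processing (grey circles) and with arrays left out (red triangles). YAP1 and WWTR1 lie on both sides of 0, ANKRD1 and TEAD4 stay above it, and NT5E comes near 0 with a floor of 16.

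Genes of the Hippo cascade upstream of YAP showed 17 negative and 4 positive differences among 21 measured, with a median of -0.61 against -0.21 for all genes, of which 58.6% were negative. None passed an adjusted p of 0.05, and 5 had an unadjusted p under 0.05, all with lower values in the RB-deficient-labelled arrays, where 10.8% of all genes had such values. NF2, which encodes merlin, an activator of the cascade at the membrane, gave 4.74, 4.68 and 5.79 in the RB-deficient-labelled arrays, against 5.78, 7.05 and 7.68 in RB-proficient (difference -1.77, SE 0.63, adjusted p 0.28). TAOK3, a kinase that can activate the MST kinases, differed by -1.69 (SE 0.69), and STK4, which encodes MST1, by -1.40 (SE 0.61). AMOTL1, a scaffold of the same family as AMOTL2, differed by -1.29 (SE 0.56), with no overlap between the groups. Of the 21 genes, 2 were lower without overlap, where 15.3% of all genes were. In NF2, TAOK3, STK4 and AMOTL1 array RB-deficient 3 was the highest of its group. The list median was -0.19 with that array alone and -1.004 without it. LATS2 and PTPN14, which hold YAP back and are also YAP targets, differed by -0.41 (SE 0.50) and -0.61 (SE 0.57).

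Of the 6 other TEAD and Vestigial-like (VGLL) genes, 5 had a negative and 1 a positive difference, none passed, and 1 (TEAD3) had an unadjusted p under 0.05. Among all genes, 58.6% had a negative difference, 10.8% were lower at an unadjusted p under 0.05 and 15.3% were lower without overlap. TEAD3 gave 0, 4.59 and 4.10 in the RB-deficient-labelled arrays, against 6.01, 5.73 and 5.81 in RB-proficient. These did not overlap, and the fitted difference of -2.95 (SE 1.05, adjusted p 0.281) rests in part on the floored array: it was -1.50 without RB-deficient 1. TEAD2, the other family member, differed by 0.74 (SE 0.69), with its highest value, 7.34, in RB-deficient 1. The VGLL proteins compete with YAP for TEAD or act as TEAD cofactors. VGLL4 differed by -1.67, VGLL2 by -0.997 and VGLL1 by -1.25, with standard errors of 0.75 to 1.07, and each turned positive with RB-deficient 3 as the only array of its group. The median of the 6 was -1.12. It was 0.27 with that array alone, -2.04 without it, -0.33 without RB-deficient 2, -0.43 with an offset of 16 and -0.17 with a floor of 16, where the VGLL4 difference was -0.0061.

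Other genes described as YAP and TAZ targets, 16 measured of 18, had 12 negative and 4 positive differences (58.6% of all genes were negative), with a median of -0.84. None passed, and 4 had an unadjusted p under 0.05, all lower in the RB-deficient-labelled arrays, as 10.8% of all genes were. In 5 of the 16 the groups did not overlap, again all lower, where 15.3% of all genes were separate in that direction. FJX1, a secreted protein related to Drosophila four-jointed, gave 4.47, 4.18 and 3.41 in the RB-deficient-labelled arrays, against 5.82, 5.21 and 6.37 in RB-proficient (difference -1.78, SE 0.54, adjusted p 0.235). FJX1 was dimmer than the median gene, and its difference was -1.15 with an offset of 16. DOCK5, a guanine nucleotide exchange factor for Rac, gave 1.58, 4.05 and 5.97 in the RB-deficient-labelled arrays, against 6.41, 6.94 and 6.70 in RB-proficient (difference -2.82, SE 0.95). The size of the DOCK5 difference rests in part on RB-deficient 1. It was -1.67 without that array, -1.70 with an offset of 16 and -0.71 with RB-deficient 3 as the only array of its group. CRIM1, a transmembrane protein that binds BMPs, differed by -1.70 (SE 0.63) and MYOF, the membrane-repair protein myoferlin, by -1.32 (SE 0.51). MYOF was bright, at 8.67, 8.83 and 9.82 in the RB-deficient-labelled arrays, against 10.5, 10.4 and 10.4 in RB-proficient. The median of the 16 depends on the arrays and on dim genes: it was -0.47 without RB-deficient 1, -0.23 with RB-deficient 3 as the only array of its group, -0.36 with the dimmest 25% of genes left out and -1.39 with the dimmest 50% left out.

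SRF, a factor that with its MRTF cofactors responds to actin and shares many targets with YAP, gave 3.90, 3.35 and 4.37 in the RB-deficient-labelled arrays, against 6.04, 5.28 and 5.92 in RB-proficient. The groups did not overlap, and the SRF difference was -1.87 (SE 0.51, unadjusted p 0.0049, adjusted p 0.214), or -1.18 after adding 16 to each value. VCL, the focal adhesion protein vinculin, differed by -1.08 (SE 0.49), also with no overlap, the cofactor MRTFB by -0.74 (SE 0.54) and the smooth muscle gene TAGLN by -0.87 (SE 0.81). Of 7 measured genes of this list, 6 had a negative difference, with a median of -0.74, which became -0.059 with a floor of 16, -0.19 with an offset of 16 and -0.45 without RB-proficient 1. None passed, and SRF alone had an unadjusted p under 0.05. Of all genes, 58.6% had a negative difference, 10.8% were lower at an unadjusted p under 0.05 and 15.3% were lower without overlap. ACTB lay lower in the RB-deficient-labelled arrays (difference -1.92, adjusted p 0.213), and so did GAPDH (-1.23, adjusted p 0.302). A link between the ACTB and SRF values was not tested.

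**Figure D5:**
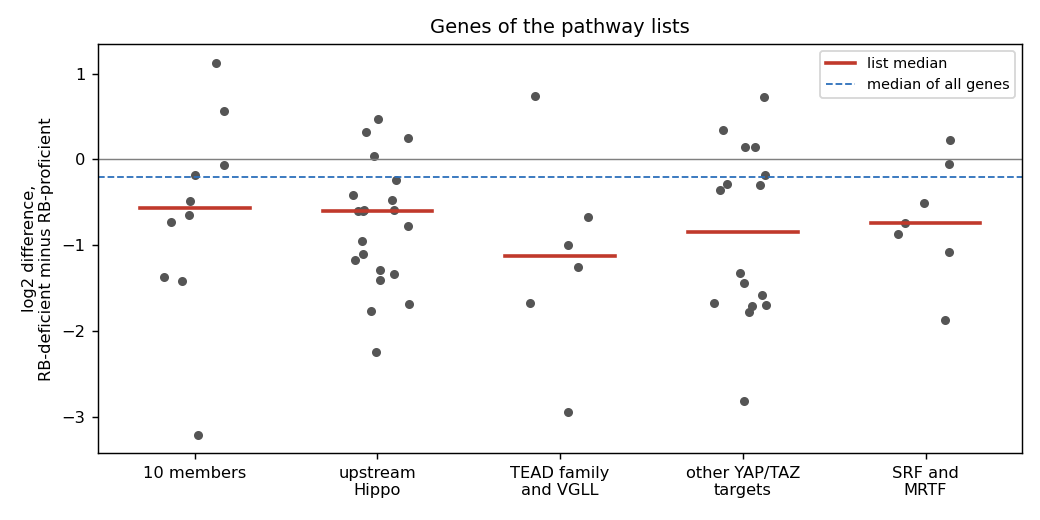
Log2 difference, RB-deficient minus RB-proficient (vertical axis), of each measured gene (points) in the 10 members and in 4 lists of related genes. Red bars are list medians and the dashed blue line is the median of all genes at -0.21. The medians of the 5 lists lie between -1.12 and -0.57.

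Among 8978 genes brighter than the median gene, after symbols of uncharacterised and non-coding genes were left out, the array profile closest to that of CCN1 was that of RAB2A, a small GTPase of the early secretory pathway, with a root mean square distance of 0.17 log2 units over the 6 arrays after each gene was centred on its mean. RNF144B, a ubiquitin ligase, followed at 0.178 and STK4 at 0.188. For CCN2 they were ABHD16B at 0.0755, the chemokine receptor gene CCR10 at 0.0813 and GREM1, a secreted BMP antagonist, at 0.0951. The order depends on the processing: under quantile normalization STK4 lay closest of the 3 to CCN1 (0.127, against 0.226 for RAB2A) and CCR10 closest to CCN2 (0.0533, against 0.158 for ABHD16B), and with an offset of 16 GREM1 lay closest to CCN2 (0.0752). These are descriptions over 6 arrays that share the differences between arrays given above.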

How the data were processed

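RNA from 6 samples labelled RB-deficient or RB-proficient was, per the labels' protocols, extracted with RNA-STAT-60, amplified (WT-Ovation Pico) and biotin-labelled. The deposited values are linear intensities for each probe set on each array, which the authors made with Affymetrix Expression Console 1.1 per the submitters' processing notes; how they summarised and normalized them is not given in the sources used here. Of 33297 probe sets, 19460 had 1 gene symbol in the platform annotation, and where a gene had several, the brightest over all 6 arrays stood for it, which gave 18417 genes. The arrays were scaled to the same median over all probe sets, floored at 1 and put on the log2 scale. Without detection calls, whether a dim value lay above background is unknown. The comparison used two-sided tests from limma 3.58.1 (lmFit and eBayes, R 4.3.3) without covariates, adjusted over all genes at a threshold of 0.05. The labels used here name no batch, no 2 arrays held the same values, and the number of arrays limits the precision. Same-numbered arrays did not deviate together (r = -0.124, 0.0739 and -0.109), so no pairing was used.

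The members and the lists of related genes were chosen with earlier results of these data known. Named are all members, RB1, ERBB2, ACTB and GAPDH, of each list the 4 genes with the smallest p, and for CCN1 and CCN2 the 3 closest profiles; further genes were chosen after their values were seen. Upstream sequences came from RefSeq (GRCh38.p14). Alternatives covered normalization, floor, filters, probe set choice, limma settings, the replicate block and arrays left out.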

Additional observations from a re-analysis of the deposited data

How the results depend on the processing

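Over 18 alternative settings 0 members passed in limma (1 lower and 1 higher at an unadjusted p under 0.05 in the reported fit), and 6 to 8 of them had a negative difference. The number of genes called among all genes, 1 as reported, was 0 after quantile normalization, with the dimmest 25% left out and without RB-deficient arrays 1 and 2, 4 with the dimmest 50% left out, 58 with a floor of 16, 193 with an offset of 16, 61 with trend and robust, and 0 to 4 with single arrays left out. With the replicate number as a block 1 gene and 0 members were called, and the median of the members stayed at -0.57; the block changed no call of a named gene at an adjusted p of 0.05, while the unadjusted p went above 0.05 for ANKRD1 (0.0892), AMOTL1 (0.0736), STK4 (0.0561), MYOF (0.0539), ERBB2 (0.0541) and GAPDH (0.0688), and the same-numbered arrays share only a number. The median of the members ran from -0.82 to -0.29, and under quantile normalization it was -0.52 while the median of all genes moved to -0.09. Signs turned for YAP1 (0.048) and the gap between YAP1 and WWTR1 (0.072) under quantile normalization, for WWTR1 (0.074) with centring, for VGLL1 (0.17) and TAGLN (0.041) with a floor of 16, and for the median of the TEAD and VGLL list (0.031) with the dimmest 50% left out. Without RB-deficient arrays 1 and 2, where the lone array is assumed to vary like the other group, they turned for YAP1 (0.37), VGLL4 (0.22), VGLL2 (0.38), VGLL1 (1.05), the TEAD and VGLL list (0.27), the gap between YAP1 and WWTR1 (0.73) and that between CCN1 and CCN2 (0.54). With single arrays left out the ranges that crossed 0 were -0.48 to 0.21 for WWTR1, -2.40 to 0.10 for VGLL1, -1.60 to 0.072 for TAGLN, -0.55 to 0.39 for the gap between YAP1 and WWTR1 and -1.67 to 0.12 for that between CCN1 and CCN2. The cause of these turns was not tested.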
